A study of Mus musculus with 4 samples.

Results

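The 10 genes described here encode transcription factors that set up or keep the identity of sensory neurons. They are Pou4f1, Pou4f2, Pou4f3, Isl1, Runx1, Runx3, Tlx3, Prdm12, Prrxl1, and Shox2, found by symbol among the 31053 genes of the count matrices. Each lies on a chromosome of its own in GRCm38, save Pou4f1 at chr14:104461676-104467999 and Prrxl1 at chr14:32599407-32649246. Their mRNA was followed across subtypes of dorsal root ganglion (DRG) neurons and across neurons with and without Sprr1a, a cornified envelope gene that is switched on by axon injury. The data came from scRNA-seq of GFP+ cells sorted from the lumbar DRGs (L4-5) of heterozygous PirtEGFPf mice on a C57BL/6 background, 7 to 8 weeks of age. In these mice a farnesylated GFP stands in place of Pirt and is driven by the Pirt promoter, so the sort aimed at cells in which that promoter was active. The paper states that DRG neurons without Pirt are mainly large cells. It adds that its myelinated (NF) neurons may therefore be somewhat underrepresented. The CCI groups had chronic constriction injury, a loose ligation of the sciatic nerve on both sides, the sham groups had sham surgery, and both were sampled 7 days later. There was 1 library each for Male-Sham and Female-Sham and then for Male-CCI and Female-CCI, made from 20 DRGs of 5 mice pooled, and every series of 4 values keeps this order. The male and female library of a surgery served as its replicates (n = 2), so p-values measure the spread between these pools and not between animals. Littermates had the same surgery, so litter and surgery cannot be told apart.

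Sensory neurons leave the neural crest as a common type under the POU-domain factor Pou4f1 (Brn3a) and the LIM-homeodomain factor Isl1, which act together to end the program of the precursors and start that of sensory neurons. Subtypes then part as Runx1 is kept in many unmyelinated nociceptors and Runx3 in proprioceptors, with Prdm12 required for nociceptors to form at all and Shox2 acting in touch neurons that carry the TrkB receptor. In the adult ganglion most of these genes stay on, and nerve injury lowers the mRNA of many subtype genes while it raises that of regeneration genes.

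The matrices held 195684124 to 237069156 UMIs per library, and 2947 to 5548 cells per library passed the filters, of which 15133 in all were neurons with a median of 32490 to 56457 UMIs. Pairs of libraries shared 0 to 6 cell barcodes. Levels are given as CPM, the UMIs of a gene per 1000000 UMIs of the summed cells. A count of 0 allows a level of up to 3 UMIs, or 0.0158 to 0.0188 CPM over all neurons of a library. The limit is higher where fewer neurons are summed, and such limits cover counting error only. Neurons fell into 10 classes that carried the marker genes of non-peptidergic nociceptors (NP1-, NP2-, and NP3-like), peptidergic nociceptors (PEP1-, PEP2-, PEP3/4-, and PEP5-like), myelinated neurons (NF1- and NF2-like), and C-fiber low-threshold mechanoreceptors (cLTMR-like). Others were CCI-ind-like, with the markers of clusters that follow CCI, or were left without a class and are called by their leading gene. A neuron was Sprr1a+ where its normalized Sprr1a UMI value was above 1. That was so in 1.28% and 2.67% of sham neurons and in 52.1% and 49.2% of CCI neurons. The sorted cells also held 109 to 186 satellite glial cells (SGC-like) per library, and the 8 SGC markers were all found in the neurons. Their summed level was 2671 and 3100 CPM in Sprr1a- neurons of sham, 2237 and 2283 CPM in Sprr1a- neurons of CCI, and 1722 and 2102 CPM in Sprr1a+ neurons of CCI, against 128980 CPM or more in SGC-like cells.

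The 3 Pou4 genes differed widely in how evenly sham neurons carried them. Pou4f1, the general factor of the family in these neurons, was found in all 10 classes. It was highest in cLTMR-like neurons, at 368 CPM in Male-Sham and 410 CPM in Female-Sham, and lowest in NP1-like neurons, at 62.5 and 72.6 CPM. The classes between them ran from 103 to 236 CPM, and several neighbors overlapped, such as NF1- with NF2-like and PEP2- with NP3-like neurons. Pou4f2 (Brn3b), better known from retinal ganglion cells, was high in few classes. It stood at 92.4 and 88.2 CPM in cLTMR-like, 36.2 and 42.0 CPM in NF1-like, and 13.5 and 8.71 CPM in PEP5-like neurons. It was at 7.36 and 6.98 CPM in NP2-like and at 2.10 CPM or less in the other 6 classes, with 0 UMIs in the NP1-like neurons of both sham libraries. There a count of 0 allows up to 0.711 and 0.847 CPM.

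Pou4f3 (Brn3c), the hair cell member of the family, took other classes than Pou4f2. Its level was 150 and 161 CPM in NF2-like, 114 and 92.5 CPM in PEP3/4-like, and 69.3 and 73.7 CPM in PEP2-like neurons. NF1-like neurons came next, at 25.9 and 32.8 CPM, and PEP1-like neurons at 7.70 and 8.64 CPM. The ranges of these 5 classes did not overlap each other. In the remaining classes the level was 2.73 CPM or less, and cLTMR-like neurons, where Pou4f2 was highest, had 0.306 and 0 CPM. NF1-like neurons were the single class of the 10 in which both genes were above 20 CPM.

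Isl1, the LIM-homeodomain partner of Pou4f1, varied least over the classes, with a ratio of 3.73 between the highest and the lowest mean. It was 352 and 300 CPM in PEP5-like neurons, which carry the cold receptor Trpm8, and 85.1 and 89.8 CPM in NP3-like neurons. The homeobox factors Tlx3 and Prrxl1 (Drg11), which in spinal cord and DRG serve pain circuits, were both highest in cLTMR-like neurons. There Tlx3 was at 420 and 434 CPM and Prrxl1 at 376 and 351 CPM. Tlx3 was lowest in NF2-like neurons, at 97.5 and 113 CPM, in which Prrxl1 was among the higher classes at 251 and 226 CPM. Prrxl1 was lowest in NP3-like neurons, at 40.9 and 40.6 CPM, in which Tlx3 was at 246 and 257 CPM.

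**Figure D1:**
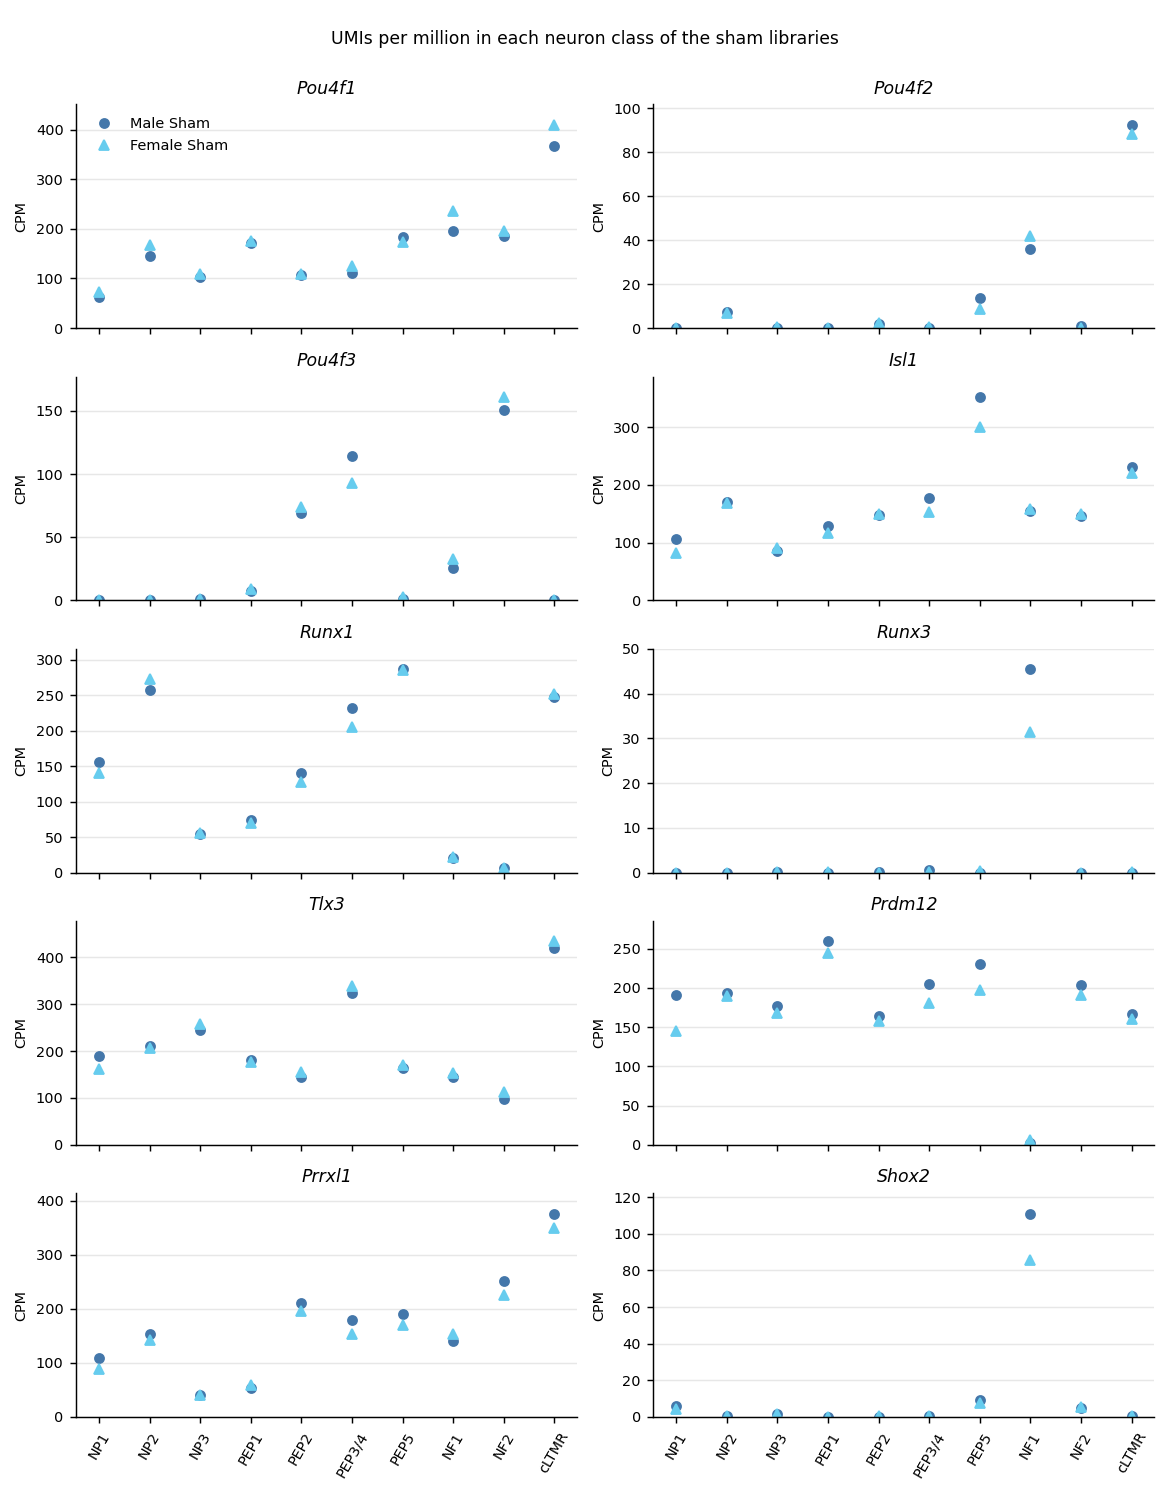
Level (CPM, linear axis from 0) of each of the 10 genes in 10 classes of neurons (horizontal axis), with 1 circle for Male-Sham and 1 triangle for Female-Sham. Pou4f1, Pou4f2, Tlx3, and Prrxl1 peak in cLTMR-like neurons, Isl1 and Runx1 in PEP5-like, Pou4f3 in NF2-like, Prdm12 in PEP1-like, and Runx3 and Shox2 in NF1-like neurons.

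The Runt factors Runx1 and Runx3 were highest in different classes. Runx1 was at 286 and 285 CPM in PEP5-like, 257 and 272 CPM in NP2-like, and 247 and 252 CPM in cLTMR-like neurons, and it was lowest in the 2 myelinated classes, at 20.3 and 21.4 CPM in NF1-like and 7.00 and 6.53 CPM in NF2-like neurons. Runx3 reached a level above 1 CPM in NF1-like neurons alone, at 45.5 and 31.4 CPM. In the other 9 classes it was at 0.579 CPM or less, and in NP1-, NP2-, and NF2-like neurons of both sham libraries it had 0 UMIs. Such counts allow up to 0.711 and 0.847 CPM in NP1-like, 0.096 and 0.102 CPM in NP2-like, and 0.51 and 0.58 CPM in NF2-like neurons.

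Prdm12, a PR-domain factor of the nociceptor lineage, had the reverse pattern to Runx3. It was 259 and 244 CPM in PEP1-like neurons and between 145 and 231 CPM in 8 further classes, most of which overlapped their neighbors. In NF1-like neurons it was 2.47 and 5.43 CPM, 63.7 times lower than in PEP1-like neurons by the means. NF2-like neurons, the other class with myelinated neuron markers, held 204 and 191 CPM. Shox2, a homeodomain factor of touch neurons, was at 111 and 85.9 CPM in NF1-like neurons. It was at 9.10 and 7.77 CPM in PEP5-like and 5.92 CPM or less in the other 8 classes, while a cluster without a class, led by the relaxin receptor gene Rxfp1, had 20.3 and 20.7 CPM. Over the 20 sums of 10 classes in 2 sham libraries, Runx3 and Prdm12 had a Pearson r of -0.985, and Runx3 and Shox2 one of 0.821, on the log2(CPM + 1) scale. These r are descriptions of points that share libraries and depth, and for Runx3 they rest on a single class. When neurons were clustered without the 10 genes and without the genes that differ after injury, the highest class was the same for all 10.

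Single neurons were looked at in the same way. Among neurons with at least 2 Runx3 UMIs, most also held Runx1, 46 of 62 in Male-Sham, 35 of 53 in Female-Sham, 29 of 39 in Male-CCI, and 23 of 34 in Female-CCI, against 90.7% to 93.7% of all neurons. Prdm12 was found in 16.1% of the 62 Runx3 neurons in Male-Sham, 15.1% of 53 in Female-Sham, 7.69% of 39 in Male-CCI, and 14.7% of 34 in Female-CCI, against 71.6% to 93.8% of all neurons of the 4 libraries. Shox2 was found in 92.5% to 97.4% of these Runx3 neurons, against 6.54% to 16.8% of all neurons. The reverse did not hold, since Runx3 was found in 19.6% to 32.9% of neurons with at least 2 Shox2 UMIs. The Runx3 neurons were deeper, with a median of 59650 to 84818 UMIs. Among neurons with at least 2 Pou4f3 UMIs, Pou4f2 was found in 3.90% to 7.99%, against 12.2% to 23.8% of all neurons, while Pou4f1 was found in 94.3% to 98.7%. A UMI may also come from free RNA. In SGC-like cells, with a median of 4188 to 5160 UMIs, Runx1 was found in 15.6% to 23.9%, and 7 of the other 9 genes were found in 11.3% or less, with Runx3 and Shox2 in none. The Sprr1a- SGC-like cells also held 7 immune markers at a sum of 179 to 579 CPM, and the source of the Runx1 UMIs was not tested. Thinned to 2000 UMIs per cell, Runx1 was found in 5.09% to 11.9% of SGC-like cells and 23.4% to 31.0% of neurons (unthinned, 90.7% to 93.7%). For 109 to 186 cells a count of 0 allows up to 3 cells with a UMI, and at this depth it does not limit how many express the gene.

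Over all neurons, CCI was compared with sham, which asks how the sorted population changed as a whole. Prdm12 was 184 and 175 CPM in sham and 83.3 and 87.4 CPM in CCI, and Tlx3 was 235 and 246 CPM in sham and 139 and 152 CPM in CCI. Pou4f2 was 16.9 and 16.8 CPM in sham and 5.92 and 7.39 CPM in CCI, and Pou4f3 was 31.9 and 30.7 CPM in sham and 16.5 and 20.3 CPM in CCI. The sham and CCI values of these 4 genes did not overlap. In edgeR's quasi-likelihood test, with calls at a Benjamini-Hochberg adjusted p under 0.05 and a log2 fold change beyond 0.5 in either direction, these 4 of the 10 genes were called lower and none higher, against 12.7% of all genes called lower. Log2 fold changes were -1.28 ± 0.10 (SE) for Pou4f2, -1.02 ± 0.05 for Prdm12, -0.71 ± 0.09 for Pou4f3, and -0.67 ± 0.06 for Tlx3. Isl1 (-0.45), Prrxl1 (-0.43), and Runx1 (-0.35) had adjusted p of 0.00136 or less but were within the fold limit. Pou4f1 (-0.15), Runx3 (-0.57), and Shox2 (0.09) had adjusted p of 0.0941, 0.297, and 0.859. Runx3 joined the calls with sex as a block, which gave 5 calls, and without Female-Sham (-1.02), but was at 0.05 without Male-Sham. Without the clusters that carried SGC markers, Isl1 (-0.53) and Prrxl1 (-0.51) were called as well, 6 in all. In such sums a change per neuron and a change in the mix of classes cannot be told apart.

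Sprr1a+ neurons of CCI were set against Sprr1a- neurons of sham, first over all neurons. Here 9 of the 10 genes were lower, against 26.4% of all genes. Runx3, among the 9, came almost wholly from NF1-like neurons. In Sprr1a- sham neurons these held 588 of its 607 and 324 of its 334 UMIs. Within that class its change was not called (-1.24), and a part of the mix of classes was not tested. Prdm12 was 187 and 180 CPM in Sprr1a- sham neurons and 21.7 and 21.4 CPM in Sprr1a+ CCI neurons, a log2 fold change of -2.94 ± 0.06 (SE, adjusted p = 1.11e-08). Pou4f2 went from 17.1 and 17.3 CPM to 1.34 and 1.27 CPM, a log2 fold change of -3.57 ± 0.08. Pou4f3 went from 32.4 and 31.7 CPM to 2.84 and 4.40 CPM, a log2 fold change of -3.00 ± 0.19.

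Isl1 was 173 and 164 CPM in Sprr1a- sham neurons and 72.1 and 68.7 CPM in Sprr1a+ CCI neurons, and Pou4f1 was 171 and 191 CPM in the first and 107 and 101 CPM in the second. Their log2 fold changes were -1.11 ± 0.06 and -0.65 ± 0.07. Tlx3 (237 and 250 CPM to 92.8 and 95.6 CPM), Prrxl1 (168 and 161 CPM to 65.2 and 63.4 CPM), and Runx1 (168 and 169 CPM to 89.0 and 91.1 CPM) fell by 1.22, 1.21, and 0.76 on the log2 scale, with SE of 0.05 to 0.06. Runx3 was 3.80 and 1.82 CPM against 0.443 and 0.558 CPM, a log2 fold change of -2.34 ± 0.43 that was called (adjusted p = 0.00485) but not without either CCI library (adjusted p of 0.0650 and 0.0597). Shox2 was 10.5 and 6.03 CPM against 8.67 and 7.12 CPM, with overlapping groups and a log2 fold change of 0.09 ± 0.32 (adjusted p = 0.817), and it was called higher without Male-Sham, by 0.53.

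The split by Sprr1a lay within the CCI libraries as well. Sprr1a+ neurons were set against Sprr1a- neurons of the same 2 CCI libraries, with library as a block, and 9 of the 10 genes, all but Shox2, were called lower, against 24.7% of all genes. Prdm12 was 156 and 155 CPM in Sprr1a- CCI neurons, and its log2 fold change was -2.68 ± 0.04, that of Pou4f3 was -3.10 ± 0.11, and that of Pou4f2 was -3.08 ± 0.11. Pou4f1 fell by 0.84, Isl1 by 1.08, Tlx3 by 0.92, Prrxl1 by 1.25, Runx1 by 0.71, and Runx3 by 2.48 on the log2 scale. Shox2 was at 0.02 ± 0.18. NF1-like neurons held 297 of the 300 and 180 of the 188 Runx3 UMIs in Sprr1a- CCI neurons. A part of the mix of classes in the fall of Runx3 was not tested. With at least 1 Sprr1a UMI as the limit for Sprr1a+, Pou4f1 was at -0.36 and not called and Shox2 was called higher, by 0.51. This comparison and the one before share the Sprr1a+ neurons of CCI.

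Between Sprr1a- neurons of CCI and of sham, none of the 10 genes was called by edgeR or by DESeq2, against 4.48% of all genes called in either direction and 1.24% called lower. At an unadjusted p under 0.05 there were 4 of the 10, against 5617 of the 16407 genes tested. Prdm12 was 187 and 180 CPM in sham and 156 and 155 CPM in CCI, a log2 fold change of -0.26 ± 0.05 (adjusted p = 0.0141), and Tlx3 had one of -0.30 ± 0.06 (adjusted p = 0.0200). Pou4f2, at 17.1 and 17.3 CPM in sham and 11.3 and 13.6 CPM in CCI, had one of -0.48 ± 0.09 (adjusted p = 0.0177), just within the fold limit, and was called under 4 of the alternatives tried. Pou4f1 was on the other side, at 171 and 191 CPM in sham and 201 and 219 CPM in CCI (log2 fold change 0.19 ± 0.07, adjusted p = 0.123). The mix of classes differed as well. The cLTMR-like neurons, highest in Pou4f2, were 11.2% and 12.8% of Sprr1a- sham neurons and 8.44% and 11.2% of Sprr1a- CCI neurons. Within them Pou4f2 was 92.4 and 88.2 CPM in sham and 83.3 and 83.7 CPM in CCI, without a call. CCI-ind-like neurons were 0.12% and 0.11% of Sprr1a- sham neurons and 2.15% and 2.54% of Sprr1a- CCI neurons. In CCI these Sprr1a- CCI-ind-like neurons had Pou4f2 at 0 and 0.459 CPM and Prdm12 at 29.4 and 34.4 CPM. The part of the mix was not tested.

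**Figure D2:**
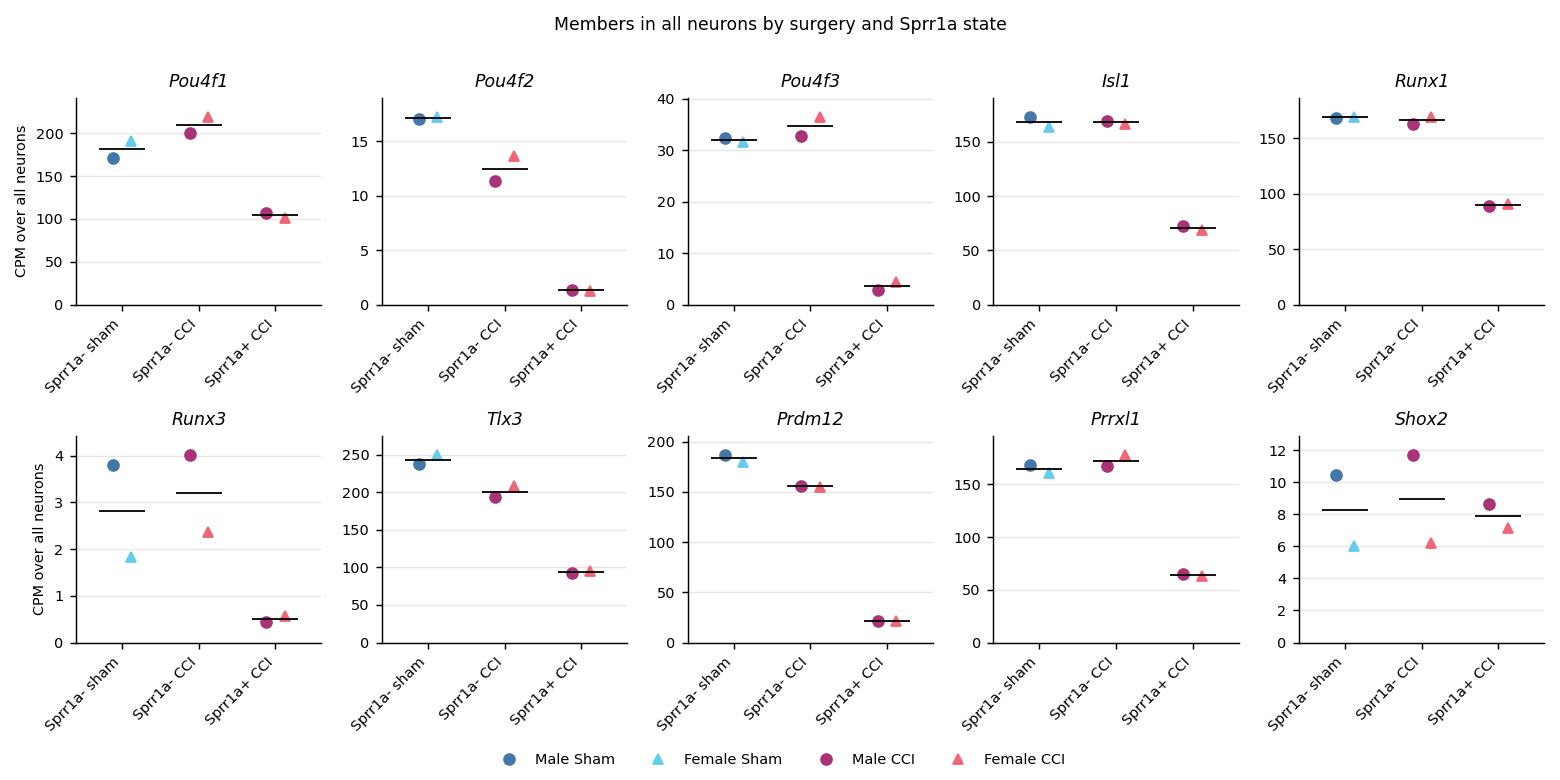
CPM (linear axes from 0) of each of the 10 genes over all neurons, by surgery and Sprr1a state (horizontal axis), with 1 symbol per library and a line at the mean of 2 libraries. For all genes but Shox2 the Sprr1a+ CCI symbols lie under both other pairs, and for Pou4f2, Pou4f3, and Prdm12 they lie near 0.

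The few Sprr1a+ neurons of sham, 42 and 144 in number, had Prdm12 at 30.1 and 26.4 CPM and Isl1 at 58.7 and 59.3 CPM. Pou4f2 was 2.38 and 2.33 CPM and Pou4f3 2.38 and 0.831 CPM in them. Tlx3, at 124 and 123 CPM, and Runx1, at 117 and 115 CPM, were above the level in Sprr1a+ CCI neurons. Shox2 was at 5.16 CPM and 5.15 CPM. These values were not tested.

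Most Sprr1a+ CCI neurons, 64.8% and 63.4%, were CCI-ind-like, so within a class of uninjured neurons the comparison was possible only where at least 10 neurons of each kind were left in each library, in NP1-, NF1-, and NF2-like neurons. In NP1-like neurons, which carry the itch peptide gene Nppb, 6 of 7 genes tested were called, against 41.6% of all genes in either direction. Prdm12 was 200 and 163 CPM in Sprr1a- sham and 37.0 and 38.8 CPM in Sprr1a+ CCI neurons, a log2 fold change of -2.21 ± 0.11. Isl1 (-1.27), Tlx3 (-1.10), Prrxl1 (-0.92), and Runx1 (-0.79) were lower as well. Pou4f1, at 64.3 and 76.2 CPM against 73.9 and 70.1 CPM, overlapped between groups (log2 fold change 0.10 ± 0.11). Shox2 rose from 22 and 10 UMIs (5.71 and 3.58 CPM) to 55 and 65 UMIs (7.88 and 10.3 CPM), a log2 fold change of 0.98 ± 0.30 (adjusted p = 0.00544). This call was lost with DESeq2 (adjusted p = 0.170), without Female-Sham (0.73, adjusted p = 0.0652), and without Female-CCI (0.75, adjusted p = 0.111). Most sham neurons of this class lay in another cluster than most of its Sprr1a+ CCI neurons, and the cluster of the latter also carried CCI-ind markers.

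In NF1-like neurons 7 of 10 genes were called in either direction, against 45.5% of all genes, and the 7 were all lower. Pou4f3 was 25.9 and 32.8 CPM in Sprr1a- sham and 1.33 and 0.588 CPM in Sprr1a+ CCI neurons, 6 and 1 UMIs in the latter, a log2 fold change of -4.35 ± 0.34. Pou4f2 was 36.2 and 42.0 CPM against 2.88 and 2.35 CPM, a log2 fold change of -3.50 ± 0.24. Pou4f1, which did not change in NP1-like neurons beyond the spread, was 195 and 236 CPM against 87.6 and 78.2 CPM, a log2 fold change of -1.03 ± 0.11. All 3 Pou4 genes were thus lower. The fit is centered on the typical gene, and by CPM the median gene of this class was at -0.34, so the CPM values fall by more than the fitted changes. Prrxl1 (-1.32), Runx1 (-1.16), Tlx3 (-1.11), and Isl1 (-0.58) were also called. With at least 1 Sprr1a UMI as the limit, Isl1 (-0.02, adjusted p = 0.883), Runx1 (-0.28, adjusted p = 0.133), and Pou4f1 (-0.33, adjusted p = 0.0361) were not. Prdm12, low in this class from the start, was 2.47 and 5.43 CPM against 4.44 and 4.70 CPM (log2 fold change 0.56 ± 0.44, adjusted p = 0.308).

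The NF1-like class held a cluster high in Pvalb, the parvalbumin gene of proprioceptors and other fast-conducting neurons, at 2714 CPM, and a cluster with 101 CPM. Runx3 was 123 and 96.7 CPM in Sprr1a- sham neurons of the high-Pvalb cluster and 10.0 and 11.0 CPM in those of the other. In the high-Pvalb cluster the Sprr1a- neurons of CCI had Runx3 at 120 and 125 CPM and Shox2 at 244 and 240 CPM, against 236 and 192 CPM of Shox2 in sham. Only 2 Sprr1a+ neurons per CCI library lay in this cluster, so no level can be given for them. Runx3 over the whole class, at 45.5 and 31.4 CPM in Sprr1a- sham and 8.43 and 22.9 CPM in Sprr1a+ CCI neurons (log2 fold change -1.24 ± 0.51, adjusted p = 0.126), therefore compared different mixes of the 2 clusters, and it was called lower under 5 alternatives, such as without Female-CCI (-1.82). In the low-Pvalb cluster alone Runx3 was 10.0 and 11.0 CPM against 7.78 and 13.3 CPM (log2 fold change 0.15 ± 0.25, adjusted p = 0.647). Over the class Shox2 was 111 and 85.9 CPM against 76.1 and 79.3 CPM (log2 fold change -0.02 ± 0.13). In the low-Pvalb cluster Shox2 was 53.4 and 52.5 CPM against 75.8 and 71.4 CPM, higher by 0.79 ± 0.11 (adjusted p = 3.48e-06). The fit is centered on the typical gene, and the CPM values of Shox2 rise by less than this fitted change. Pou4f3 in the low-Pvalb cluster was 35.7 and 38.2 CPM against 1.33 and 0.632 CPM. Pou4f1 (-1.32), Pou4f2 (-3.98), Runx1 (-1.05), Tlx3 (-1.37), and Prrxl1 (-1.76) were also called lower in it, and Isl1 was not (-0.32, adjusted p = 0.0141). This division of the class was made after the values were seen.

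**Figure D3:**
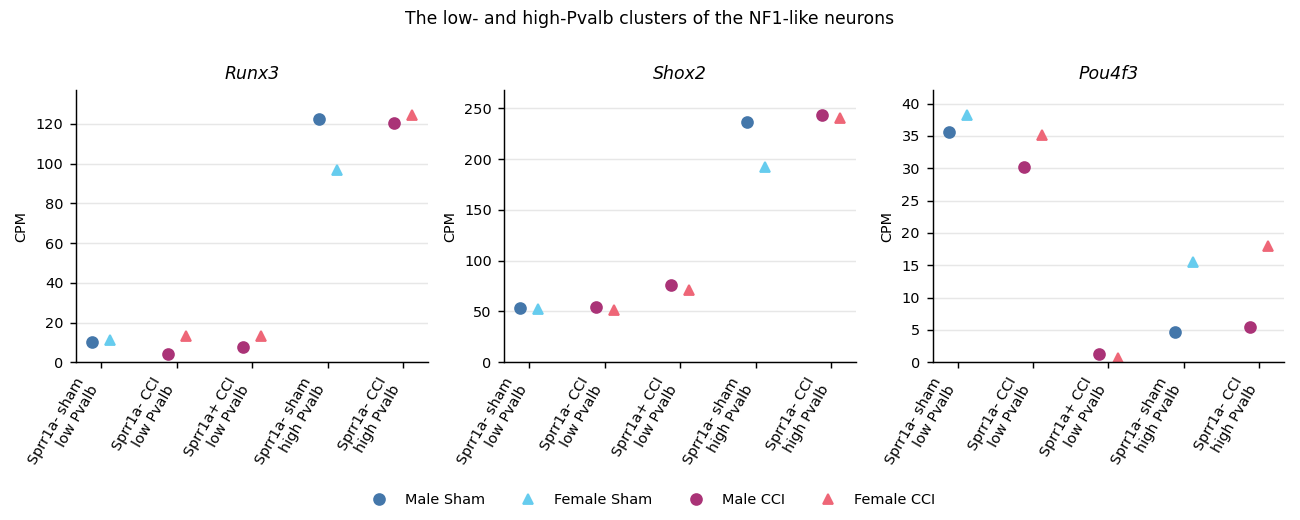
CPM (linear axes from 0) of Runx3, Shox2, and Pou4f3 in the low- and high-Pvalb clusters of NF1-like neurons by surgery and Sprr1a state (horizontal axis), 1 symbol per library, without the 2 Sprr1a+ CCI neurons per library of the high-Pvalb cluster. Runx3 and Shox2 are higher in the high-Pvalb cluster, and Pou4f3 is near 0 in the Sprr1a+ CCI neurons of the low-Pvalb cluster.

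In NF2-like neurons 5 of 8 genes tested were called, against 43.7% of all genes in either direction. Pou4f3, at its highest in this class, was 150 and 161 CPM in Sprr1a- sham and 7.27 and 17.1 CPM in Sprr1a+ CCI neurons, a log2 fold change of -3.53 ± 0.30. Prdm12 was 204 and 191 CPM against 34.1 and 34.6 CPM (-2.29 ± 0.10), Prrxl1 251 and 226 CPM against 60.4 and 67.0 CPM (-1.68 ± 0.10), and Isl1 146 and 150 CPM against 75.4 and 73.3 CPM (-0.76 ± 0.10). Runx1 was the exception. It was low in sham, at 7.00 and 6.53 CPM, and was 16.0 and 18.3 CPM in Sprr1a+ CCI neurons, higher by 1.56 ± 0.19 on the log2 scale. With doublets kept it was at 0.18 and not called (adjusted p = 0.643). Pou4f1 (-0.32, adjusted p = 0.0203) and Tlx3 (-0.32, adjusted p = 0.0349) were within the fold limit, and Shox2 was at -0.05 ± 0.50, but called lower without Female-CCI (-1.09). SGC markers summed to 1363 and 1433 CPM in the sham neurons and 1136 and 1736 CPM in the Sprr1a+ CCI neurons of this class, and a part of them in the Runx1 result was not tested. The class was 2.38% and 1.79% of Sprr1a- sham neurons but 5.59% and 4.75% of Sprr1a+ CCI neurons. Whether neurons of other classes were placed in it was not tested.

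Since most Sprr1a+ neurons lay outside the classes of sham neurons, each CCI neuron was also given the class of the sham neurons it was most like, by label transfer without the 10 genes and without 1931 genes that differ after injury. A transferred class is a best match and not an observed identity. Over the 9 classes with at least 10 Sprr1a+ neurons in each library, 22.8% of gene-by-class tests over all genes were called lower and 22.3% higher. Prdm12 was lower in 8 of 9 classes, with log2 fold changes of -2.01 to -3.62 in those. In NP2-like neurons it was 193 and 190 CPM in sham and 16.4 and 17.1 CPM in Sprr1a+ CCI neurons, and in PEP1-like neurons 259 and 244 CPM against 26.8 and 22.4 CPM. The exception was the NF1-like class (0.29 ± 0.51), in which sham neurons hold little of it. Isl1 and Tlx3 were also lower in 8 of 9 classes, all but NF1-like (-0.43) for Isl1 and all but NF2-like (-0.31) for Tlx3.

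Prrxl1 was lower in 7 of 9 transferred classes. It was not called in NP3-like neurons (40.9 and 40.6 CPM against 41.5 and 45.6 CPM) or PEP1-like neurons (53.6 and 59.7 CPM against 40.2 and 39.9 CPM), which had its lowest levels in sham. Runx1 was lower in 6, with NP3-like (0.11), PEP1-like (-0.21), and NF2-like neurons (0.62 ± 0.26, adjusted p = 0.0744) not called. Its rise in NF2-like neurons thus did not pass the test in the transferred class, at 7.00 and 6.53 CPM against 8.66 and 8.83 CPM. Pou4f1 was lower in 4 of 9. In cLTMR-like neurons it was 368 and 410 CPM in sham and 138 and 126 CPM in Sprr1a+ CCI neurons, a log2 fold change of -1.54 ± 0.10. It fell by 1.00 in NF1-like, 0.80 in NP2-like, and 0.58 in NP3-like neurons, and it lay between -0.49 and 0.21 in the other 5 classes.

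Pou4f2 was lower in all 4 transferred classes in which it could be tested, from 92.4 and 88.2 CPM to 6.90 and 5.96 CPM in cLTMR-like neurons (-3.80 ± 0.12), and by 3.14, 2.95, and 2.54 on the log2 scale in NF1-, PEP5-, and NP2-like neurons. Pou4f3 was lower in NF1-like (-4.47), NF2-like (-2.93), PEP3/4-like (-2.68), and PEP1-like neurons (-1.25). PEP2-like neurons, which also hold it in sham, were not among the 9 classes. In the clustering without the 10 genes and the injury genes, Pou4f3 in PEP2-like neurons was 66.7 and 72.8 CPM in sham and 14.3 and 9.85 CPM in Sprr1a+ CCI neurons, from 9 and 15 UMIs (-2.45 ± 0.23). In transferred classes it was called higher in NP2-like neurons, from 9 and 11 UMIs (0.288 and 0.375 CPM) to 31 and 32 UMIs (0.961 and 1.33 CPM), and in NP3-like neurons, from 14 and 13 UMIs (1.12 and 1.09 CPM) to 19 and 10 UMIs (5.93 and 2.27 CPM). These higher levels stayed under the 12.6 to 22.6 CPM of Sprr1a+ neurons of the NF2-like class.

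Shox2 was the gene of the list that was called higher most often, in 5 of the 8 transferred classes tested, and lower in none. In NP2-like neurons it was 0.288 and 0.272 CPM in sham, from 9 and 8 UMIs, and 7.63 and 7.82 CPM in Sprr1a+ CCI neurons, from 246 and 188 UMIs (log2 fold change 4.69 ± 0.23, adjusted p = 5.51e-12). In PEP1-like neurons it was 0.150 and 0.0859 CPM against 1.73 and 2.13 CPM (4.09 ± 0.48). It was also higher in NP3-like (1.98), cLTMR-like (1.89), and NP1-like neurons (0.93). These levels were 10.1 CPM or less, against 88.1 and 92.7 CPM in Sprr1a+ neurons of the NF1-like class, where it did not change beyond the spread (0.17 ± 0.13). In the clustering without the 10 genes and the injury genes, Shox2 in NP2-like neurons was 0.288 and 0.275 CPM in sham and 9.51 and 8.19 CPM in Sprr1a+ CCI neurons.

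**Figure D4:**
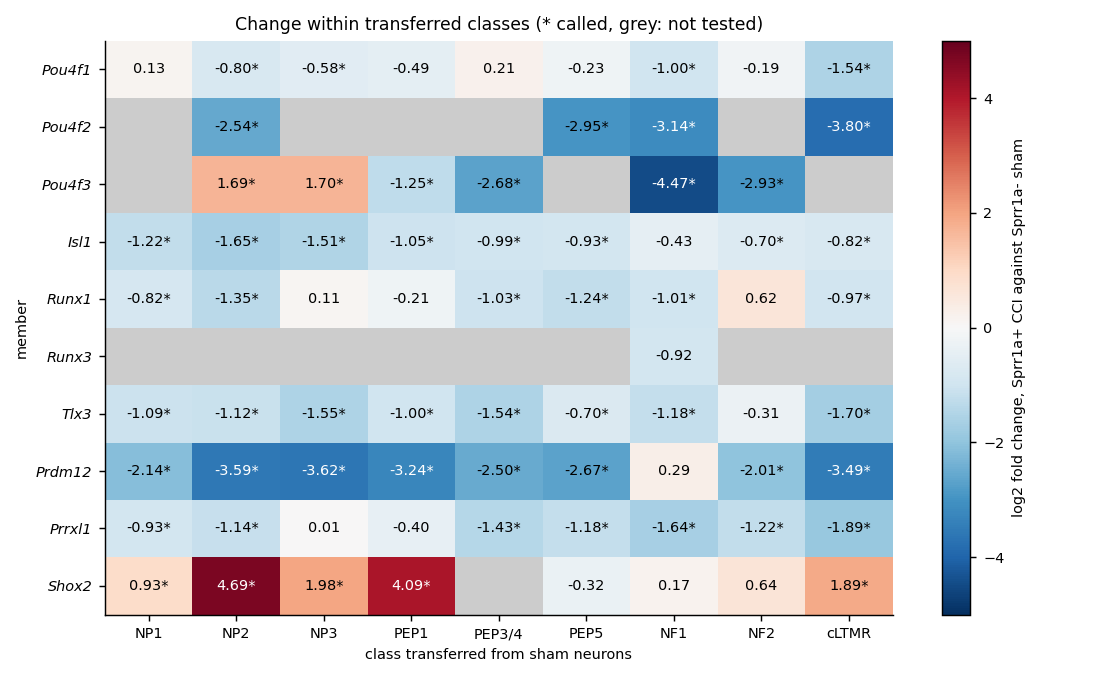
Log2 fold change of Sprr1a+ CCI against Sprr1a- sham neurons for the 10 genes (vertical axis) in 9 transferred classes (horizontal axis), blue for lower and red for higher, with a star where called and grey where a gene could not be tested. Isl1, Tlx3, and Pou4f2 are blue wherever tested and Prdm12 in 8 of 9 classes, and Shox2 is red with a star in 5 classes, red without one in NF1- (0.17) and NF2-like neurons (0.64), and blue without one in PEP5-like neurons (-0.32).

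The change in a class was also set against the mean change in the other classes, in 1 fit over NP1-, NF1-, and NF2-like neurons with library as a block. Of 21 such contrasts, over the 7 genes tested in all 3 classes, 12 were called, against 21.6% of gene-by-class contrasts of all genes. The 3 classes enter every contrast, so a large effect in 1 class moves the values of the others. Several calls for a gene are therefore not separate differences. Runx1 was called in all 3. Its effect in NF2-like neurons was 2.53 ± 0.21 above the mean of the others, and those in NP1- and NF1-like neurons were 0.97 and 1.57 below. Prdm12 was also called in all 3, by 2.80 ± 0.52 above in NF1-like neurons and by 1.33 and 1.47 below in NP1- and NF2-like neurons. Pou4f1 was 0.81 ± 0.12 above in NP1-like and 0.96 ± 0.12 below in NF1-like neurons. Isl1, in contrast, was called in the NP1-like contrast alone, 0.57 ± 0.13 below.

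Sprr1a- neurons of CCI were compared with those of sham in each of the 10 classes. Of 78 gene-by-class tests of the list, 1 was called, against 3.25% over all genes. In 17 the adjusted p was under 0.05, and all of these but the 1 called were within the fold limit. No share over all genes was taken for the adjusted p alone. In 35 the unadjusted p was under 0.05. Over all genes the share with such a p was lowest in NF1-like neurons, 1870 of 11977 genes. It was highest in PEP1-like neurons, 3869 of 13244 genes. The call was Pou4f2 in NF1-like neurons, at 36.2 and 42.0 CPM in sham and 25.7 and 26.8 CPM in CCI (log2 fold change -0.54 ± 0.12, adjusted p = 0.0495). It was lost with DESeq2, with RLE size factors (adjusted p = 0.0527), and with a limit of 1 Sprr1a UMI (-0.37, adjusted p = 0.750). The clustering without the 10 genes and the injury genes lost it too (adjusted p = 0.0502). In the low-Pvalb cluster alone it was -0.31 ± 0.12 (adjusted p = 0.274), and a part of the mix of the 2 clusters was not tested. Over all classes, other settings gave 0 to 4 calls. Pou4f1 was on the higher side without a call in several classes, for example from 112 and 126 CPM to 153 and 160 CPM in PEP3/4-like neurons (0.38 ± 0.08, adjusted p = 0.00562). Tlx3 in the same class was 324 and 340 CPM in sham and 269 and 269 CPM in CCI (-0.32 ± 0.06, adjusted p = 0.00633), and Prdm12 in PEP1-like neurons was 259 and 244 CPM against 196 and 196 CPM (-0.34 ± 0.06, adjusted p = 0.00432).

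Genes that work with the 10 or under them were followed as lists in the comparison of Sprr1a+ CCI with Sprr1a- sham neurons. Of all genes, 26.4% were called lower and 23.5% higher in this comparison. Of 7 cofactors, 2 were called lower and 3 higher. Ldb2, which bridges LIM-homeodomain factors such as Isl1, was lower, from 163 and 155 CPM to 13.5 and 13.8 CPM (log2 fold change -3.40 ± 0.05). Of 48 other factors of sensory neuron subtypes or lineage tested, 22 were lower and 10 higher, with a median log2 fold change of -0.59 against -0.01 for all genes. Those with the largest falls were Hoxd1 (-5.82), Etv1 (-4.84), a factor of proprioceptors and other afferents, and Bhlha9 (-4.17). Prox1 (3.78), Rorb (3.48), and the neuronal determination gene Neurog1 (2.11) rose from 0.420 CPM or less to levels that were still low, 0.863 to 1.54 CPM. Of 20 receptor and channel genes of the subtypes tested, 17 were lower and 2 higher. The 5 injury genes used to check the Sprr1a split, Sprr1a among them, were all higher, which the split itself set in part. Between Sprr1a- neurons of CCI and of sham, 3 of the 5 were called higher as well, Sprr1a (4.83), Sox11 (1.34), and Atf3 (0.62).

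The promoters of Prdm12 and Shox2 are shown because in Sprr1a+ neurons the first was called lower in 8 transferred classes and the second in none. They come from RefSeq (GRCm38.p6), run from 250 bases before to 50 bases after the start of the gene, and are written 5′ to 3′ on the strand of the gene. The first lies on the plus strand at chr2:31639787-31640086 and the second on the minus strand at chr3:66981722-66982021.
Prdm12: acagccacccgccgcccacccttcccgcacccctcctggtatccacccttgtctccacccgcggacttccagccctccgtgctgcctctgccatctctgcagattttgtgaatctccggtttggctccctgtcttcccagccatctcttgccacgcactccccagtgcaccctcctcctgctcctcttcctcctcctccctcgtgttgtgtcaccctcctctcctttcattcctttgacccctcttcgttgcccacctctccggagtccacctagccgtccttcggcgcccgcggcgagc
Shox2: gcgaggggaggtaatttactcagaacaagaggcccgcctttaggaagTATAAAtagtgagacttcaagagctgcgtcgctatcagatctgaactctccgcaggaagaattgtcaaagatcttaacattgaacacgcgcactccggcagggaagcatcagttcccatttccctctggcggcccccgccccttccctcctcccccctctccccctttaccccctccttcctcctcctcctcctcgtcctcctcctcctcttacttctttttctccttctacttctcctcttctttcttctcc
Capitals mark the only motif found, TATAAA, in the Shox2 window. The motifs searched on both strands were TATAAA, found in 13.6% of 32851 promoter windows, the Runx core TGTGGT (16.8%), the homeodomain core TAATTA (5.29%), the AP-1 core TGANTCA (7.81%), and the CRE TGACGTCA (1.79%). Of 11 windows for 9 of the 10 genes, TGTGGT was found in those of Runx1, Runx3, and Prrxl1. The Prdm12 window held none of the 5 and was 63.7% G and C, against 53.3% in the Shox2 window. A match to these letters is a description of the window and says nothing of binding.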

How the data were processed

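The authors aligned the reads of the 10x 3′ v3 libraries to mm10 and made UMI counts with Cell Ranger (2.1.1 in the processing notes, 3.0.2 in the matrix headers), and the deposited matrices hold raw UMI counts, whole numbers for each gene and called cell. Doublets were ranked with Scrublet in scanpy 1.11.5, whose automatic threshold marked 0 to 121 cells per library, so the number removed was the study's. Cells under 1500 genes or over 10% mitochondrial UMIs were removed. Seurat 5.3.0 integrated the libraries on 3000 genes and clustered 20 principal components at resolution 0.8, and a cluster took a class from at least 3 of its markers.

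UMI counts were summed over neurons per library and tested with edgeR 4.0.16 (filterByExpr, TMM, robust quasi-likelihood test, two-sided), with Benjamini-Hochberg adjustment over all genes tested. DESeq2 1.42.0 was an alternative. The tests were tried on simulated data. Neurons per library and class numbered at least 10. Male and female libraries share no animal, so sex was a block only as an alternative. All 10 genes were tested in every comparison over all neurons, and not all of them are named in each. Other factors named are the 4 largest called changes each way, except for a gene that is not reported here. The genes, the lists, and the tests were chosen with earlier results of these data known.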

Additional observations from a re-analysis of the deposited data

Results flagged for a closer look

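All results here come from edgeR's interaction contrasts between classes and mark genes whose change in Sprr1a+ CCI against Sprr1a- sham neurons differed in 1 class from the mean of the other classes tested (n = 2 libraries per group). In NP1-like neurons the contrast was 0.81 ± 0.12 (SE, log2 scale) for Pou4f1 (adjusted p = 6.14e-06) and 0.61 ± 0.18 for Prrxl1 (adjusted p = 0.0169). It was -0.57 ± 0.13 for Isl1, -0.97 ± 0.17 for Runx1, and -1.33 ± 0.30 for Prdm12 (adjusted p of 0.000903, 6.56e-05, and 0.00427).

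In NF1-like neurons it was -0.96 ± 0.12 for Pou4f1, -1.57 ± 0.22 for Runx1, and 2.80 ± 0.52 for Prdm12 (adjusted p of 3.56e-07, 3.15e-06, and 0.00140). In NF2-like neurons it was 2.53 ± 0.21 for Runx1, 0.80 ± 0.14 for Tlx3, -1.47 ± 0.30 for Prdm12, and -0.56 ± 0.17 for Prrxl1 (adjusted p of 4.17e-10, 0.000231, 0.00423, and 0.0353). The change of Runx1 within NF2-like neurons, 1.56, was 0.18 (adjusted p = 0.643) with doublets kept and 0.62 (adjusted p = 0.0744) in transferred classes, and the contrast was not computed under either. The 3 classes enter every contrast, so a large effect in 1 class moves the values of the others, as for Prdm12, whose NF1-like neurons hold 2.47 and 5.43 CPM in sham.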

How the results depend on the processing

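Over 143 results for single genes, 2159 of 2214 alternative values kept their side of the call, 2061 of them with the same sign and 98 uncalled with the other sign, 24 lost a call, 29 gained one, and 2 reversed. Prdm12 in NF1-like neurons went from 0.56 to -1.35 with doublets kept, and Shox2 in NF1-like neurons from -0.02 to 0.79 without the high-Pvalb cluster, an alternative added after the data were seen, and the cause of either was not tested. With sex as a replicate block, calls over all neurons of CCI against sham went from 4 to 5, and within Sprr1a- classes from 1 to 2, while 9 for Sprr1a+ CCI against Sprr1a- sham and 0 for Sprr1a- neurons stayed. The 9 calls within CCI were also 9 with no replicate block, and 9 with at least 1 Sprr1a UMI as the limit, with Shox2 in place of Pou4f1. With that limit of 1 UMI, 6 genes were called in Sprr1a+ CCI against Sprr1a- sham, without Pou4f1, Runx1, and Runx3. For Sprr1a- CCI against Sprr1a- sham over all neurons, calls rose from 0 to 1, Pou4f2, with no filter on low counts, with a Sprr1a limit of 2, and without clusters carrying SGC markers (added later), and ranged from 0 to 1 when a library was left out. Within classes of Sprr1a- neurons there were 0 calls with DESeq2, with RLE size factors, with the clustering without members and injury genes, and without the high-Pvalb cluster, 2 with no filter and without clusters carrying SGC markers, 3 with a Sprr1a limit of 2, 4 with doublets kept, and 0 to 3 when a library was left out. The limit of 1 Sprr1a UMI left too few NF2-like neurons for that count. Leaving out a library could not be done within CCI, where no residual degrees of freedom remain, and elsewhere the lone library of an arm is assumed to vary like the others. Depth limits the low genes most, since Pou4f3 in Sprr1a+ NF1-like neurons rests on 6 and 1 UMIs.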

Other observations

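For each of the 10 genes the 3 genes of most like pattern were sought over the 20 sums of 10 classes in 2 sham libraries, by Pearson r of log2(CPM + 1) among 11560 genes with at least 5 CPM in a class. Runx3 was most like Sema5b (r = 0.993), St8sia5 (0.993), and Igf1 (0.991), and Pou4f2 was most like Dusp5 (0.964), a phosphatase of the MAP kinase pathway. Pou4f3 was most like Ppme1 (0.953), Prdm12 most like Cd9 (0.947), and Runx1 most like Tbce (0.952), with the cofactor gene Ldb2 also among its closest (0.929). Prrxl1 was most like Slit1 (0.933), an axon guidance gene, and Tlx3 most like Csgalnact1 (0.941). For Pou4f1, Isl1, and Shox2 the highest r were 0.923 (Ap1s2), 0.937 (Pigf), and 0.923 (Maea). These points share 2 libraries, and the r are descriptions only.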
